A study of Mus musculus with 8 samples.

Results

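Neurofilaments and other neural intermediate filaments were described here through 7 genes, Nefl, Nefm, Nefh, Ina, Prph, Nes and Vim, out of 19938 genes tested. A gene was represented by a probe set that names no other gene. Where several did, as for Ina, the probe set was chosen by its mean level over the 8 arrays, the highest being kept. All 7 genes had such a probe set, and none was lost to a filter on low values, since none was applied. The family was taken up with the call of Nefm already known, so the values of Nefm below describe a gene that was chosen for its difference.

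The arrays measured total RNA of layers II-IV of the neocortex, cut out by laser from mice at postnatal day 5, with 1 array per pup. The 4 Bcl6 mutant pups were Bcl6 flox/flox;Nex Cre/+, and the 4 Bcl6 control pups were Bcl6 flox/flox;Nex +/+. Both groups thus carry 2 floxed Bcl6 alleles, and only the mutants carry Cre, on 1 allele of the Nex locus. Neurod6 is today's symbol for Nex. It is expressed mainly in postmitotic excitatory neurons of the cortex, so that Cre is not expected in most interneurons, glia or vessel cells. The product of Bcl6 is a transcriptional repressor with zinc fingers, and the series title places it in a pathway that controls the death of projection neurons during development.

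Intermediate filaments are rope-like polymers that give cells mechanical strength. Progenitors and glia of the brain build them from vimentin and nestin, and neurons replace these as they differentiate, first with alpha-internexin and the light and medium neurofilament chains and later with the heavy chain. Neurofilaments fill the axon and are known for setting its diameter, and in the mature cortex they are especially dense in large projection neurons of layer V.

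Values are the deposited levels on the log2 scale, where a difference of 1 is a doubling of the signal. Because probes differ in brightness, a higher level of 1 probe set than of another does not mean more RNA. Where the values of 2 genes are subtracted within an array, only the shift of that value between genotypes can be read. Differences are mutant minus control, with the standard error (SE) of limma, and adjusted p-values are Benjamini-Hochberg values over all 19938 genes with a threshold of 0.05. The level of a gene in dissected tissue cannot tell fewer cells of a type from less RNA per cell.

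The genes of both engineered loci were read first. Bcl6 read 6.61, 6.76, 6.96 and 6.78 in mutant replicates 1 to 4, against 6.55, 6.58, 6.25 and 6.23 in control replicates 1 to 4. The mutant label thus went with a higher signal, and the groups did not overlap. The difference was 0.37 ± 0.10 (SE; limma adjusted p = 0.655, exact permutation p = 0.0286, two-sided), which did not pass the threshold. The sources do not say which part of the transcript the Bcl6 probe set covers. The value therefore tests neither the labels nor the loss of the floxed part, and "mutant" below means the arrays labelled mutant. Neurod6 read 8.83 ± 0.17 in mutants and 9.22 ± 0.13 in controls (SD, n = 4 each). Its difference was -0.39 ± 0.09 (SE, limma adjusted p = 0.535, exact permutation p = 0.0286, two-sided). As with Bcl6, its groups did not overlap, which held for 2.75% of all genes in either direction. Xist, the RNA of X inactivation, read 9.78 and 9.76 in mutant replicates 1 and 4, against 2.64 to 3.41 in the other 6 arrays, so that sex was not balanced between the genotypes. Control replicate 1 stood apart in another way: of 9 markers of mural, fibroblast and meningeal cells, 4 (Col1a1, Col1a2, Dcn and Lum) were highest in it among the 8 arrays. The rest were not, and Cspg4 was lowest in it, at 5.42 against 5.69 to 5.87 in the other arrays. The mean level of that list was 5.13 to 5.27 in mutants, against 5.39 in control replicate 1 and 5.15 to 5.26 in the other controls, and its part in the results below was not tested.

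Of the 7 intermediate filament genes, 1 rose in the mutants, Nefm, and 0 fell. Nefm was 1.43-fold higher, while the other 6 genes did not pass the threshold, with differences between -0.14 and 0.24. Over all genes 10 of 19938 rose (0.0502%) and 3 fell (0.015%). At an unadjusted p under 0.05 in limma, Nefm was again the only one of the 7, against 4.91% of all genes. The median difference was 0.03 over the 7 genes and -0.0096 over all genes, and 5 of the 7 differences were above 0, against 44.6% of all genes. Since Nefm brought the family into view, these counts describe it and test nothing.

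**Figure D1:**
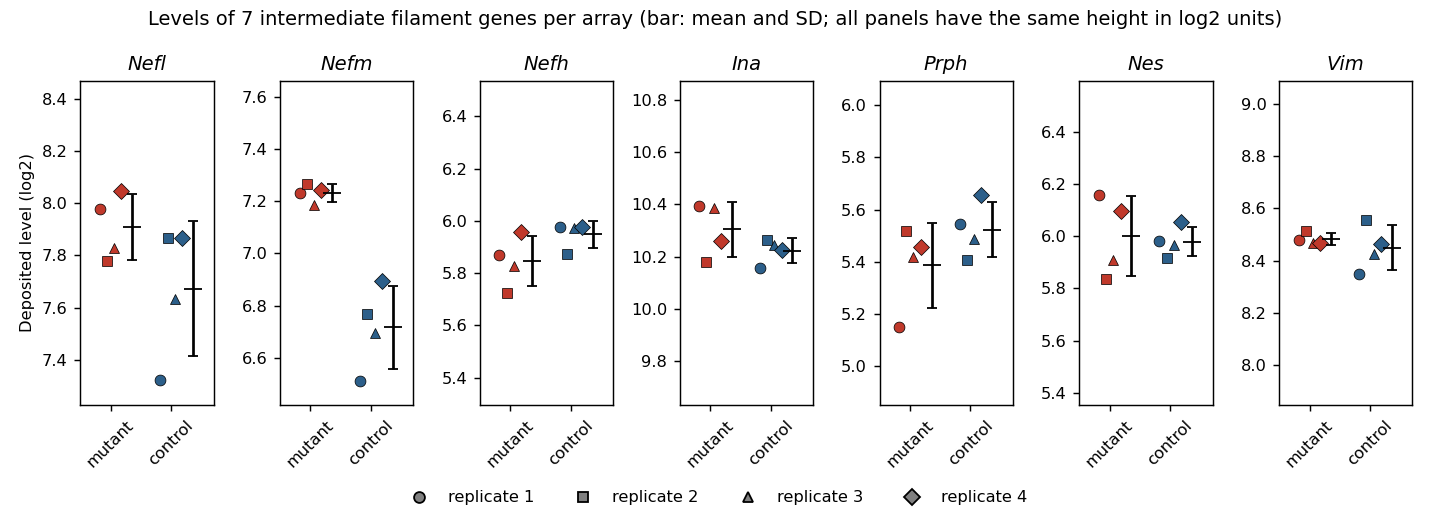
Deposited levels (y axis, log2) of the 7 genes, 1 panel each, in 4 mutant arrays (red, left) and 4 control arrays (blue, right), with a symbol per replicate number and a bar for the mean and SD. All 4 mutant values of Nefm, 7.19 to 7.26, lie above all 4 control values, 6.51 to 6.89, and in the other 6 panels the groups overlap.

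Nefm encodes the medium neurofilament chain, which copolymerises with the light chain and carries a long phosphorylated tail. Its level was 7.23, 7.26, 7.19 and 7.24 in mutant replicates 1 to 4, against 6.51, 6.77, 6.69 and 6.89 in control replicates 1 to 4. Every mutant value lay above every control value, which held for 2.75% of all genes in either direction. The mutant arrays were also close together, with a SD of 0.03, against 0.16 in controls (n = 4 each). The difference was 0.51 ± 0.08 (SE; 95% interval 0.34 to 0.69; limma adjusted p = 0.0451), the 13th largest rise and the 12th smallest p of all genes. The exact permutation p for this single gene was 0.0286 (two-sided), the smallest that 4 against 4 arrays can give.

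The adjusted p of Nefm lay close to the threshold, while its difference hardly moved. Leaving out 1 array at a time gave differences of 0.45 to 0.57, and the call was kept only without control replicate 4 (limma adjusted p = 0.0443) and lost in the other 7 fits (0.107 to 0.187). The lowest difference was the one without control replicate 1, 0.45 ± 0.07 (SE). Without mutant replicates 1 and 4, the arrays with high Xist, the difference was 0.51 ± 0.11 (SE; limma adjusted p = 0.589), and these 2 arrays read 7.23 and 7.24 where the other mutants read 7.26 and 7.19.

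**Figure D2:**
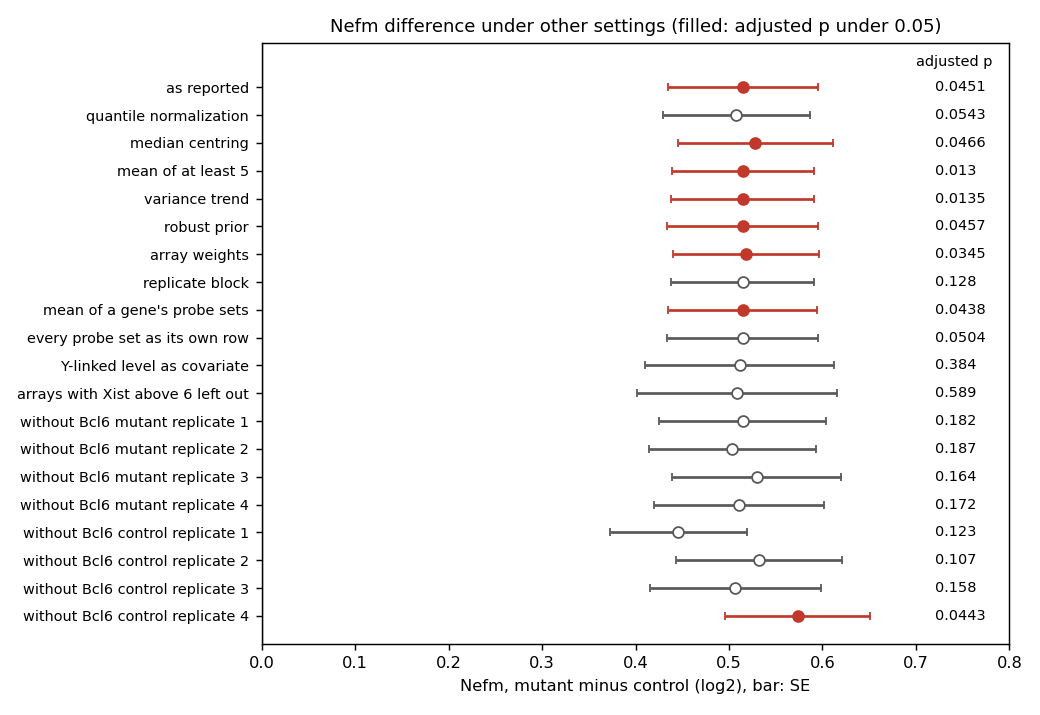
Nefm difference (x axis, mutant minus control, log2, with SE) under each alternative setting (y axis), filled red where the adjusted p printed at the right is under 0.05. The differences lie between 0.45 and 0.57 under every setting shown, while the adjusted p runs from 0.013 to 0.589. The level filter, variance trend, robust prior, replicate block and probe set settings cannot move the difference, only its SE and p.

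The light chain, encoded by Nefl, is a subunit with which the medium and heavy chains assemble. Nefl read 7.98, 7.78, 7.83 and 8.05 in mutant replicates 1 to 4, against 7.32, 7.87, 7.63 and 7.87 in control replicates 1 to 4. The values of mutant replicates 1 and 4, the arrays with high Xist, lay above all controls, and the groups overlapped. Its difference was 0.24 ± 0.11 (SE; 95% interval -0.01 to 0.48; limma adjusted p = 1.00, exact permutation p = 0.171, two-sided). The interval reaches from no difference to a 1.40-fold higher level in mutants, so a change of the size seen in Nefm was only narrowly outside it. Without the 2 arrays with high Xist the difference was 0.13 ± 0.14 (SE). Control replicate 1, the highest array for 4 of the 9 mural, fibroblast and meningeal markers, was the lowest array for both Nefl and Nefm. Without it the Nefl difference was 0.12.

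Nefl and Nefm are neighbours on chromosome 14, with 1 pseudogene, Gm19216, between them in the gene order of GRCm38.p6. Within an array, Nefm minus Nefl was -0.75, -0.52, -0.64 and -0.80 in mutant replicates 1 to 4, against -0.81, -1.10, -0.94 and -0.98 in control replicates 1 to 4. The mutant values were thus all above the control values, by 0.28 on average, though mutant replicate 4 and control replicate 1 were 0.01 apart. This contrast of the chosen gene with its neighbour is a description and was not tested.

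**Figure D3:**
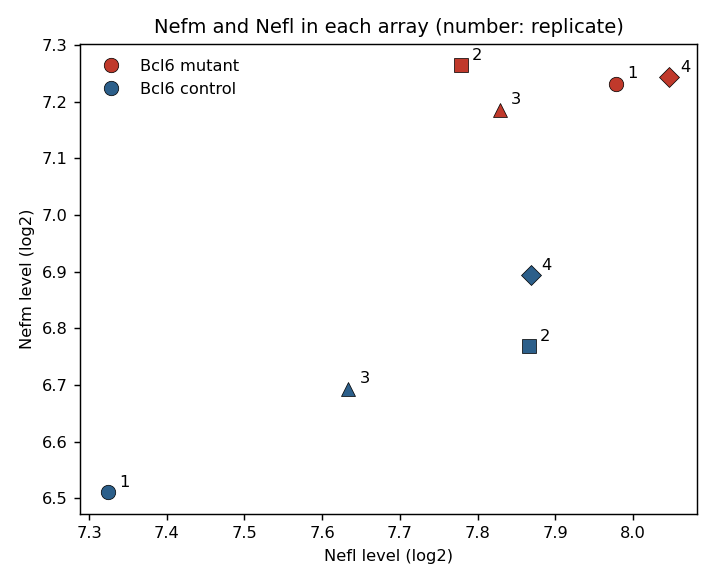
Level of Nefl (x axis, log2) against level of Nefm (y axis, log2) in each of the 8 arrays, red for mutants and blue for controls, numbered by replicate. The mutants form a flat row at Nefm levels of 7.19 to 7.26, and the controls lie below it, with control replicate 1 lowest for both genes.

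The deviations of Nefm and Nefl from their genotype means gave r = 0.84 and Spearman's rho = 0.76 over the 8 arrays. Nefm had a SD of 0.03 in mutants and 0.16 in controls, so every r with Nefm here was set mostly by the controls. For Nefl, r rested in part on 2 control arrays: without control replicates 1 and 4 it was 0.49, and without control replicate 1 alone it was 0.51. For Nefm and Vim r was 0.71 and rho 0.81, and r was 0.82 without control replicates 1 and 4 but 0.22 without control replicate 1 alone. For Nefm with Nefh, Ina, Nes or Prph r lay between -0.13 and 0.19. All such values come from the same 8 libraries and share whatever differs between arrays, and they are given with no p.

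The heavy chain, encoded by Nefh, is added to neurofilaments late in the maturation of an axon. Nefh read 5.87, 5.73, 5.83 and 5.96 in mutant replicates 1 to 4, against 5.98, 5.87, 5.97 and 5.98 in control replicates 1 to 4. Mutant replicates 1, 2 and 3 lay below the lowest control, and mutant replicate 4 lay among the controls. The difference was -0.10 ± 0.07 (SE; 95% interval -0.25 to 0.04; limma adjusted p = 1.00, exact permutation p = 0.0571, two-sided), so the interval leaves out a rise of the size of Nefm's. Nefm minus Nefh was 1.28 to 1.54 in mutant arrays and 0.53 to 0.92 in control arrays. Nefm alone already separates the groups, so this contrast is a description and was not tested.

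Alpha-internexin, the product of Ina, joins the neurofilaments of central neurons and appears early in their differentiation. Ina read 10.39, 10.18, 10.39 and 10.26 in mutant replicates 1 to 4, against 10.16, 10.26, 10.25 and 10.23 in control replicates 1 to 4. Its groups overlapped, mutant replicates 1 and 3 being the highest arrays, and the difference was 0.08 ± 0.07 (SE; 95% interval -0.07 to 0.23; limma adjusted p = 1.00). Ina has a second probe set, which was set aside for its lower mean over the 8 arrays, 9.09 against 10.26, and which differed by 0.04 ± 0.08. Of the 4 chains that build neurofilaments in central neurons, 1 rose (Nefm) and 0 fell, against 0.0502% and 0.015% of all genes. Their median difference was 0.16, against -0.0096 over all genes, but Nefl and Ina did not pass the threshold and Nefh was below 0. Since these chains include Nefm, for which the family was taken up, the count and median test nothing.

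**Figure D4:**
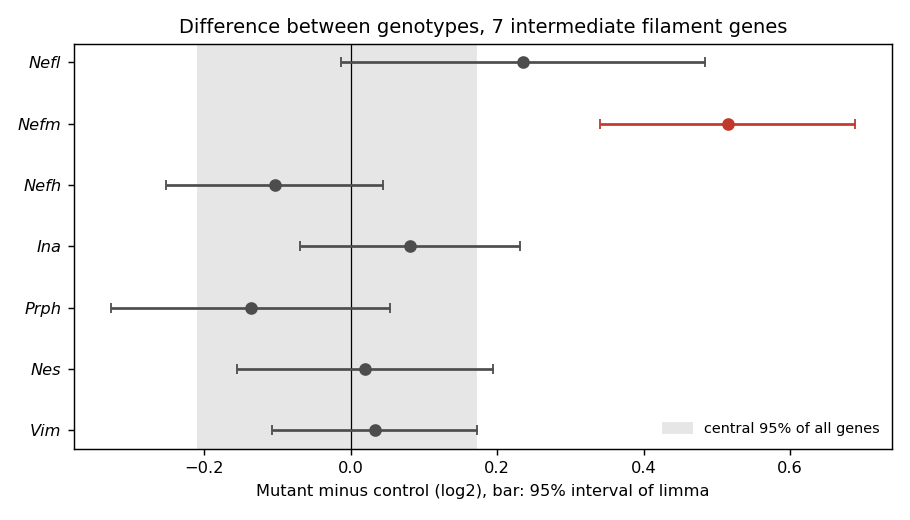
Mutant minus control (x axis, log2 difference) with its 95% interval for each of the 7 genes (y axis), red where the adjusted p is under 0.05. The grey band holds the central 95% of the differences of all genes, from -0.21 to 0.17. Nefm at 0.51 and Nefl at 0.24 lie outside this band, and only the interval of Nefm leaves out 0.

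Peripherin, the product of Prph, is an intermediate filament protein mainly of peripheral and sensory neurons and of motor neurons. Prph read 5.15, 5.52, 5.42 and 5.46 in mutant replicates 1 to 4, against 5.54, 5.41, 5.49 and 5.66 in control replicates 1 to 4. The groups overlapped and mutant replicate 1 was the lowest array, and the difference was -0.14 ± 0.09 (SE; limma adjusted p = 1.00). Without mutant replicate 1 it was -0.06. Of 5 genes of peripheral and sensory neurons tested, 0 passed the threshold in limma and 0 had an unadjusted p under 0.05, and their mean level was 3.76 to 3.81 in mutant arrays and 3.80 to 3.88 in control arrays. Their members of smallest p were Isl1 (-0.16 ± 0.09, SE), Pou4f1 (-0.14 ± 0.08) and Chat (0.12 ± 0.07).

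Nestin and vimentin are the filament proteins of progenitors and radial glia, and vimentin is also made by young astrocytes, endothelium and mesenchymal cells. Nes read 6.16, 5.83, 5.91 and 6.10 in mutant replicates 1 to 4, against 5.98, 5.92, 5.96 and 6.05 in control replicates 1 to 4. Its difference was 0.02 ± 0.08 (SE; 95% interval -0.15 to 0.19; limma adjusted p = 1.00). Mutant replicates 1 and 4, those with high Xist, were the 2 highest arrays, and the other 2 mutants were the lowest. Without the 2 arrays with high Xist the Nes difference was -0.11, so that no direction can be given for this gene.

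Vim varied least within mutants of the 7 genes. It read 8.48, 8.51, 8.47 and 8.47 in mutant replicates 1 to 4, against 8.35, 8.56, 8.43 and 8.46 in control replicates 1 to 4. All mutant values lay inside the range of the controls, and the difference was 0.03 ± 0.06 (SE; 95% interval -0.11 to 0.17; limma adjusted p = 1.00), which turned to -0.0004 without control replicate 1. The intervals of Nes and Vim both leave out a rise or fall as large as that of Nefm.

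Other cells that make nestin and vimentin were read from marker lists. Of 9 markers of progenitors and radial glia, 10 of astrocytes, 8 of endothelium and 9 of mural, fibroblast and meningeal cells, 0 passed the threshold in limma, and 0, 0, 0 and 1 had an unadjusted p under 0.05, against 4.91% of all genes. Their median differences were 0.0057, 0.04, 0.02 and 0.0038. The astrocyte markers of smallest p were Fgfr3, a growth factor receptor (0.12 ± 0.07, SE), Gfap, the intermediate filament protein of astrocytes (-0.11 ± 0.06), and the folate enzyme Aldh1l1 (0.12 ± 0.07). For progenitors they were the proliferation marker Mki67 (0.16 ± 0.08), Pax6 (-0.10 ± 0.08) and Eomes (-0.06 ± 0.07), and for mural and meningeal cells Dcn (-0.55 ± 0.25), Pdgfrb (0.14 ± 0.08) and Col1a2 (-0.12 ± 0.11). Dcn read 4.61 in control replicate 1, against 3.20 to 3.54 in the other controls, and without that array its difference was -0.24 ± 0.14. Flt1 (0.14 ± 0.08), Slc2a1 (0.11 ± 0.07) and Tek (0.09 ± 0.10) led the endothelial list. The mean level of the astrocyte list was 7.55 to 7.75 in mutant arrays and 7.60 to 7.72 in control arrays.

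Other genes of the intermediate filament system were read next. Of 14 further filament genes, among them lamins, desmin, synemin and simple keratins, 0 passed the threshold in limma and 0 had an unadjusted p under 0.05, with differences between -0.11 and 0.12 and a median of -0.02. Smallest in p were Gfap, Synm, the large filament partner synemin (-0.09 ± 0.08, SE), and Bfsp2, a filament protein of the eye lens (-0.11 ± 0.10). Gfap read 5.17, 5.21, 5.14 and 5.25 in mutant replicates 1 to 4, against 5.26, 5.31, 5.29 and 5.36 in control replicates 1 to 4. All mutant values of Gfap lay below all control values (limma adjusted p = 1.00), which held for 2.75% of all genes in either direction.

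Linkers, transport motors, kinases and turnover factors of neurofilaments numbered 28 tested of 33 listed, and 0 passed the threshold in limma. At an unadjusted p under 0.05 there were 0 as well. Their differences lay between -0.09 and 0.11, with a median of 0.0076, and 15 of the 28 were above 0. The members of smallest p were Map6, which stabilises microtubules (0.11 ± 0.07, SE), Mapk8, the stress kinase JNK1 (-0.09 ± 0.06), and Plec, the cytolinker plectin (0.11 ± 0.09). Of 8 transcription factors of the SOX and POU families, some of which act on the neural enhancer of nestin, 0 passed and 1 had an unadjusted p under 0.05, against 4.91% of all genes, namely Sox3 (-0.22 ± 0.07; limma adjusted p = 0.844). Pou3f4 (-0.14 ± 0.09) and Sox11 (0.18 ± 0.12) followed.

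Because neurofilament genes are switched on as neurons mature, general genes of both stages were set beside them. Of 10 genes of immature neurons 0 passed the threshold in limma and 0 had an unadjusted p under 0.05, with a median difference of 0.02 and Sox11, Sox4 (0.07 ± 0.11, SE) and Stmn1 (0.03 ± 0.06) smallest in p. Of 11 genes of mature neurons 0 passed and 4 had an unadjusted p under 0.05, against 4.91% of all genes, 1 of them higher and 3 lower in mutants, with a median of -0.05. The higher one was Scn1a, a sodium channel subunit of fast-firing neurons, which read 6.72, 6.71, 6.58 and 6.67 in mutant replicates 1 to 4, against 6.17, 6.53, 6.34 and 6.26 in control replicates 1 to 4. Its difference was 0.35 ± 0.08 (limma adjusted p = 0.491). The lower ones were Vsnl1, a neuronal calcium sensor (-0.24 ± 0.08), Sv2b, a synaptic vesicle glycoprotein (-0.33 ± 0.12), and Snap25 (-0.21 ± 0.09). All 3 were highest in control replicates 3 and 4. Snap25 read 10.86 and 10.79 there, against 10.49 and 10.55 in control replicates 1 and 2 and 10.38 to 10.57 in mutants.

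Layer V neurons are among the cortical cells richest in neurofilament and lie next to the dissected layers, so their markers were read beside Nefm. Of 14 layer V markers 0 passed the threshold in limma and 4 had an unadjusted p under 0.05, against 4.91% of all genes, 1 higher and 3 lower in mutants. The median was 0.08, with 9 of 14 above 0, and the mean level of the list was 6.37 to 6.53 in mutant arrays and 6.32 to 6.46 in control arrays. The higher one was Ldb2, a cofactor of LIM-domain factors, at 8.64, 8.47, 8.07 and 8.36 in mutant replicates 1 to 4, against 7.43, 7.29, 7.58 and 8.03 in control replicates 1 to 4 (0.80 ± 0.15, SE; limma adjusted p = 0.197). Hsd11b1, which activates glucocorticoids, and Slc17a8, which loads glutamate into vesicles, were the lower ones of smallest p (-0.35 ± 0.08 and -0.32 ± 0.08). The remaining lower one was Crym (-0.22 ± 0.10). Control means of Hsd11b1, Slc17a8 and Crym were low, at 5.03, 4.87 and 5.54, under the median of 5.56 over all genes. Markers with a mean of at least 7 (Ldb2, Pcp4, S100a10, Cntn6, Sulf2 and Etv1) were all above 0, from 0.02 to 0.80. The 5 markers below 0 all had lower means, as did some of those above 0. This split by level was made after the values were seen and was not tested. The factors that define subcerebral neurons, Fezf2 and Bcl11b, read 0.30 ± 0.17 and 0.09 ± 0.06. Whether a different share of layer V tissue plays a part in the Nefm difference was not tested.

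The 9 markers tested of the dissected layers had a median level of 8.96 in controls, where the median of all genes was 5.56. Of these 0 passed the threshold in limma and 1 had an unadjusted p under 0.05, against 4.91% of all genes. That 1 was Neurod6, lower in mutants (-0.39 ± 0.09, SE), whose locus carries Cre in mutants, and Rasgrf2 (0.18 ± 0.09) and Lmo4 (0.16 ± 0.10) followed in p. The median difference was 0.05. Of 8 interneuron, 7 oligodendrocyte and 6 microglia markers, 0 passed in limma and 2, 1 and 1 had an unadjusted p under 0.05, against 4.91% of all genes, with medians of 0.0061, 0.03 and -0.04. Leading these lists were Reln (0.17 ± 0.07), Calb2 (0.24 ± 0.11), Gad2 (0.09 ± 0.09), Cnp (0.23 ± 0.07), Mbp (-0.10 ± 0.06), Olig1 (0.14 ± 0.09), P2ry12 (-0.27 ± 0.10), Tmem119 (-0.11 ± 0.08) and Csf1r (0.07 ± 0.07).

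**Figure D5:**
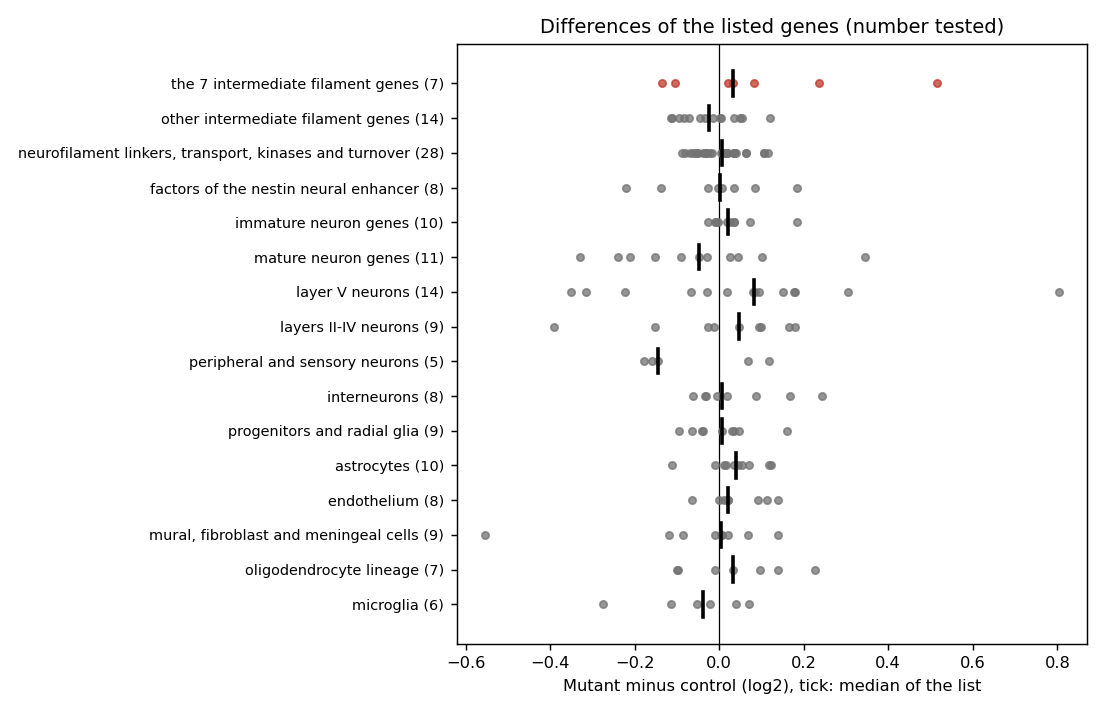
Mutant minus control (x axis, log2 difference) of every tested gene of the 7 intermediate filament genes (red) and of the lists read beside them (grey; y axis, number tested in parentheses), with a black tick for the median. List medians run from -0.14 for peripheral neurons to 0.08 for layer V. Among rises, Nefm at 0.51 is exceeded only by the layer V marker Ldb2 at 0.80, and the largest fall is Dcn at -0.55.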

How the data were processed

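The authors deposited log2 levels of 35556 probe sets on 8 Affymetrix Mouse Gene 1.0 ST arrays, made in BRB-ArrayTools per the labels. How they were normalized and summarized, and with which version, is not stated. The log2 scale was read from the values (0.74 to 13.63). Without single-probe signals or detection calls, dim levels cannot be told from undetected ones, and 4 arrays a group set the precision.

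Probe sets naming 1 gene (21789 of 23410 listed, 21698 matched by Entrez identifier to GRCm38.p6 symbols) gave 19938 genes. The test was limma 3.58.1 in R 4.3.3 (lmFit, then eBayes, two-sided) with a genotype term alone. The fit was also run on data simulated with independent noise. These held no effects of sex, dissection or array, so they say nothing about such effects here. Single genes were tested by exact permutation over 70 splits. The 7 genes, the lists and the alternatives (normalization, filters, prior, weights, block, probe sets, sex, arrays left out) were chosen with earlier results of these data known. Named list genes are up to 3 of smallest p. Fezf2, Bcl11b, Crym, Etv1, Pcp4, S100a10, Cntn6, Sulf2, Cspg4, Snap25, Rorb, Cux2 and Slc17a7 were added after their values were seen. The labels do not say whether the replicate numbers pair pups.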

Additional observations from a re-analysis of the deposited data

Results flagged for a closer look

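One array stood apart within its group. Nefh read 5.87 in control replicate 2, against 5.97 to 5.98 in the other 3 controls, and this gap made up 0.948 of the group's whole range of 0.11, above Dixon's 95% critical value for 4 arrays. Of the 14 groups looked at (7 genes in 2 genotypes) this was the only one, and chance sets apart about 1 group in 20. Without control replicate 2 the Nefh difference was -0.13.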

How the results depend on the processing

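The number of genes called was 13 and within 1.5 times of it under 11 of 22 alternatives. It was 5 with the replicate block, 4 with the Y-linked level as covariate, 2 without the arrays with high Xist, 3 at an adjusted p of 0.01, and 3 to 13 when 1 array was left out. Of the 7 filament genes, 1 (Nefm) was called in the reported fit and 0 after quantile normalization, among genes with a mean of at least 7 (Nefm, at 6.97, is not among them), with the replicate block, with every probe set as its own row, with the Y-linked level as covariate, without the arrays with high Xist, and at an adjusted p of 0.01. When 1 array was left out the count was 0 to 1. The Nefm difference in those fits was 0.51 after quantile normalization (adjusted p = 0.0543), 0.51 with the replicate block (0.128), 0.51 with every probe set as its own row (0.0504), 0.51 with the Y-linked covariate (0.384), 0.51 without the arrays with high Xist (0.589), and 0.45 to 0.57 with 1 array left out. Fits with arrays left out hold fewer arrays, and in the others the cause was not tested. The replicate block and the probe sets as own rows cannot move the Nefm difference, only its SE and p. The Nes difference of 0.02 turned to -0.11 with the Y-linked covariate and -0.11 without the arrays with high Xist, and lay between -0.033 and 0.075 with 1 array left out, being -0.033 without mutant replicate 1, -0.01 without mutant replicate 4 and -0.001 without control replicate 2. The Vim difference of 0.03 was -0.00043 without control replicate 1 and at most 0.068 with another array left out. All of Nefl, Nefh, Ina and Prph kept their direction and did not pass the threshold under any alternative run in which they were tested, within 0.12 to 0.30, -0.17 to -0.06, 0.05 to 0.12 and -0.18 to -0.05. Same-numbered mutants and controls deviated together with r between -0.01 and 0.16, over 0.1 for 1 of 4 numbers. Mutant replicates 3 and 4 were closest to the control of their own number, and mutant replicates 1 and 2 were not. The labels state no pairing, and the numbers were not taken as pairs. The Dcn difference without control replicate 1, -0.24 against -0.55 with all arrays, was computed after seeing the data.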

Other observations

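The genes around the Nefl and Nefm pair on chromosome 14 were read in the gene order of GRCm38.p6. Of the 5 tested genes on each side, 0 passed the threshold in limma, and 0 had an unadjusted p under 0.05. Dock5, next to Nefl and a guanine nucleotide exchange factor, read 0.21 ± 0.16 (SE), and Adam7, next to Nefm, read -0.13 ± 0.07 at a low level of 2.60 in mutants and 2.73 in controls. Differences of the other 8 genes lay between -0.05 and 0.07.

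A few genes were closest to Nefm in how they deviated from their genotype means over the 8 arrays, among 5962 genes with a mean level of at least 7. These were Dstn, an actin-depolymerising factor (r = 0.98), Id2, an inhibitor of bHLH factors (0.97), Timm8a1, a mitochondrial import protein (0.97), Gsto1, a glutathione transferase (0.96), and Selenof, a selenoprotein (0.96). They were picked as the highest of many values, share the same arrays, and differed between genotypes by -0.14 to 0.07, none past the threshold in limma. Nefm varied little within mutants (SD 0.03, against 0.16 in controls), so these values of r were set mostly by the control arrays.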
